A study of Mus musculus with 12 samples.

Results

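Collagen genes were taken as every gene whose symbol reads Col, a type number, the letter a and a chain number, and 44 of the 37287 gene identifiers in the count tables were of this kind. They fell into 11 fibrillar collagens, 6 basement membrane chains (type IV), 6 beaded filament chains (type VI) and 21 other collagens. RNA was sequenced from 12 cultures of mouse embryonic fibroblasts, all of them MyoD-/-; Myf5-/-, so that every culture, controls included, lacked both myogenic factors of its own. Of these, 2 received lenti-MyoD (1x and 2x virus), 2 lenti-Myf5 (1x and 2x), 1 no virus, and 5 lenti-GFP (MOI, the viral particles given per cell, of 15, 30, 60 and 120, and 1 at 1x). The last pair of libraries, counted in a table of its own, came from cells with 1x lenti-Chimera and from cells with 1x lenti-MyoD of a second batch of virus that was balanced against it. Cells were infected with polybrene (8 µg/ml), given differentiation medium with insulin, transferrin and horse serum after 24 hours and harvested 20 hours later, and libraries were made by oligo-dT selection. The promoter of the lentiviral transgenes, the makeup of the Chimera, the number of embryos behind the cells and the way 1x relates to an MOI are not given in the sources used here. Nothing says that libraries of a group came from separate infections at 1 dose, so p-values measure the spread between these libraries, dose included.

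Collagens are secreted triple-helical proteins made from 1 or several kinds of chain. Fibrillar collagens (types I, III, V and XI) form the tension-bearing fibres that fibroblasts lay down, type IV collagen forms the sheet-like network of basement membranes that wraps each muscle fibre, and type VI collagen forms beaded filaments that link this network to the fibres outside it. The remaining classes sit on fibril surfaces (FACIT collagens such as types XII and XVI), form hexagonal networks (type VIII), carry long sugar-bearing interruptions near basement membranes (the multiplexins, types XV and XVIII) or span the cell membrane. MyoD and Myf5 are myogenic basic helix-loop-helix factors that bind the E-box, CANNTG, and turn fibroblasts towards skeletal muscle.

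Library depth was 68.3 to 81.5 M counts in the libraries with MyoD, Myf5, no virus or 1x GFP, 17.9 to 22.4 M in the GFP libraries of the MOI series and 23.7 to 25.1 M in the last pair. Myod1 was at 309 and 617 CPM (counts per M counts of its library) in 1x and 2x MyoD cells and at 5.21 to 5.99 CPM in the other libraries of that table. Myf5 was at 149.5 and 249 CPM in 1x and 2x Myf5 cells and at 11.9 to 24.4 CPM in the others, so both genes followed the labels. Chimera cells held 22.1 CPM of Myod1 and 165 CPM of Myf5, and second-batch MyoD cells held 324 CPM of Myod1 and 14.7 CPM of Myf5. The 1x GFP library stood apart from the MOI series, against which 12.1% of 13825 genes were called higher and 12.2% lower in the MOI series (edgeR, adjusted p under 0.05), so results against GFP are also given with this library alone and without it. Summed fibroblast markers (8 of 8 counted) were at 6771 to 9369 CPM in MyoD cells, 10402 to 12207 CPM in Myf5 cells and 13732 to 16396 CPM in GFP cells. Summed skeletal muscle markers (6 genes, 5 with a count in GFP cells) were at 763 to 2072 CPM in MyoD cells, 101 to 225 CPM in Myf5 cells and 2.18 to 3.45 CPM in GFP cells. Chondrocyte markers summed to 45.3 to 70.4 CPM in MyoD cells, 64.4 to 95.4 CPM in Myf5 cells and 88.3 to 109 CPM in GFP cells. Nearly all of this was Sox9, with Acan, Comp and Matn1 each at most 0.319 CPM in these cells. Osteoblast markers summed to 34.3 to 46.2 CPM in MyoD cells, 49.4 to 60.1 CPM in Myf5 cells and 68.0 to 74.5 CPM in GFP cells. Markers of Schwann cells summed to at most 7.33 CPM, of endothelial cells to at most 0.760 CPM, of epithelium to at most 2.53 CPM and of macrophages to at most 15.0 CPM, with the macrophage gene Adgre1 at 0 in all libraries.

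Promoter sequence is shown for 4 of the collagens called lower with MyoD under every setting tried below. Col12a1 and Col16a1, also called lower throughout, are not shown. Given is the DNA before the transcription start, with bases that the annotation places in an exon left out. This leaves 126 bases for Col6a1, which end some way before its start, and 250 for Col6a2, Col3a1 and Col8a1. Col6a2 has more than 1 annotated start, of which 1 is shown. The sequences are from RefSeq (GRCm38.p6, not the mm9 build of the counts), each reads 5′ to 3′ on the strand of the gene, and none overlaps an annotated exon. Capitals mark CANNTG, the E-box, or GGGCGG on either strand, which reads CCGCCC on the other one. The stretches lie at chr10:76726169-76726294 (minus strand, Col6a1), chr10:76623631-76623880 (minus, Col6a2), chr1:45311288-45311537 (plus, Col3a1) and chr16:57754738-57754987 (minus, Col8a1).
Col6a1: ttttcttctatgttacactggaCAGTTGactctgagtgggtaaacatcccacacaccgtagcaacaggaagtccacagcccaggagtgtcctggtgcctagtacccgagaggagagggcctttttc
Col6a2: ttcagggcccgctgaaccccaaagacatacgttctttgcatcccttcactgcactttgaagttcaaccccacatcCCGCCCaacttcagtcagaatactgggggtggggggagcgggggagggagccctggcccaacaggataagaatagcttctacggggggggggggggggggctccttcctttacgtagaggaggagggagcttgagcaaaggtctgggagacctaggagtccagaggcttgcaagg
Col3a1: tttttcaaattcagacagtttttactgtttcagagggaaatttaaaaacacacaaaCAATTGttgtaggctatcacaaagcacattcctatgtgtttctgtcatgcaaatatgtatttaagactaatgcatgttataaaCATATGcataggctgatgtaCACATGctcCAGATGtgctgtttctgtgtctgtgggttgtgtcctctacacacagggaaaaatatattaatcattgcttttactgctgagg
Col8a1: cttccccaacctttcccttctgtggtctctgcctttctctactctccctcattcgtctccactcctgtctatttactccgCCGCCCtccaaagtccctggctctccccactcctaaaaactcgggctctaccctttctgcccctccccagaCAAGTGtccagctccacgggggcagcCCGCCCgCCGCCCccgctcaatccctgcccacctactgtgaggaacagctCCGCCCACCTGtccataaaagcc

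The stretch before Col3a1 held 4 E-boxes and no GGGCGG, and that before Col8a1 held 2 E-boxes and 4 GGGCGG matches. The shorter stretch of Col6a1 held 1 E-box in its 126 bases, and that before Col6a2 held no E-box. The last GGGCGG match of Col8a1 overlaps its second E-box. Over windows of 300 bases (250 before the start and 50 after it), 35 of the 44 collagen symbols matched, with 38 windows. CANNTG, which reads the same on both strands, was in 52.6% of the collagen windows and in 72.3% of 32851 windows of all genes. Its variant CAGCTG was in 18.4% of collagen windows and 16.3% of all windows, and CACCTG or its complement in 13.2% and 20.2%. GGGCGG, searched on both strands, was in 60.5% of collagen windows and 35.7% of all windows, CCAAT in 34.2% and 37.4%, and TATAAA in 13.2% and 13.6%. Col4a1 and Col4a2, the pair that was higher with MyoD, start on opposite strands of chromosome 8 with 22 bases in common, and neither window held a CANNTG. These matches describe the letters in the windows and show no binding.

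Collagen transcripts made up 1.37% and 1.04% of all counts in 1x and 2x MyoD cells and 1.48% and 1.25% in 1x and 2x Myf5 cells, 1.82% in cells without virus and 1.79% to 1.94% in the 5 GFP libraries. Fibrillar collagens summed to 9465 and 6955 CPM with MyoD and to 10429 and 8794 CPM with Myf5, against 12259 to 12972 CPM in GFP cells. Beaded filament chains summed to 2315 and 1612 CPM with MyoD and to 2453 and 1843 CPM with Myf5, against 3526 to 4324 CPM in GFP cells. Basement membrane chains went the other way with MyoD: they summed to 1071 and 1268 CPM with MyoD and to 775 and 813 CPM with Myf5, against 718 to 798 CPM in GFP cells. As a share of all collagen counts, type IV chains were 7.84% and 12.2% in MyoD cells, 5.25% and 6.53% in Myf5 cells and 3.78% to 4.21% in GFP cells. The other collagens summed to 812 and 588 CPM with MyoD and to 1111 and 1009 CPM with Myf5, against 1163 to 1367 CPM in GFP cells. These sums are descriptions with no test, and in bulk RNA fewer cells of a type and less RNA per cell cannot be told apart. The fibroblast marker sum above, mostly Fn1, Vim and Dcn, differed in the same direction as the fibrillar and beaded filament sums. So did the chondrocyte and osteoblast sums, which were nearly all Sox9 and Runx2. The fibroblast marker Thy1 did not follow its sum against the MOI series. It was at 389 and 318 CPM with MyoD and 420 and 396 CPM with Myf5. The MOI series held 311 to 316 CPM of it and 1x GFP 508 CPM. The muscle markers differed in the direction of the type IV sum, and the part of all these markers in these results was not tested.

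**Figure D1:**
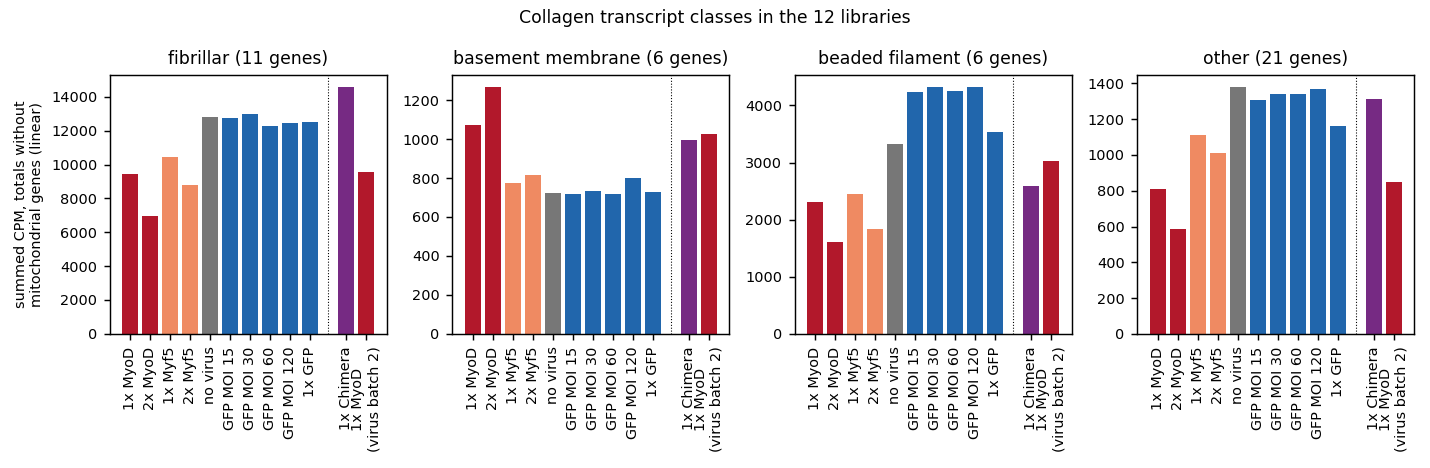
Summed CPM of the 4 collagen classes in each of the 12 libraries (bars start at 0), with totals taken without mitochondrial genes. The dotted line separates the table of the Chimera and second-batch MyoD libraries. Basement membrane chains are highest in the 2x MyoD library (1268 CPM), while the beaded filament sum is lowest there (1612 CPM).

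Of the 44 collagens, 29 reached 1 CPM in at least 2 of the 10 libraries of the main table and were tested, 9 fibrillar, 4 of type IV, 4 of type VI and 12 others. Of these, 28 passed in the GFP libraries alone. The exception was Col15a1, which passed only through the MyoD libraries. The other 15 collagens reached at most 0.840 CPM (Col14a1) and included the cartilage collagen Col2a1, the kidney chains Col4a3 and Col4a4, and Col6a5 and Col6a6. Per kilobase of transcript, the GFP libraries held Col1a2 at 898 ± 57 CPM per kb (SD, n = 5), Col3a1 at 621 ± 83, Col6a1 at 514.5 ± 51, Col1a1 at 486 ± 26 and Col6a2 at 288 ± 31. Col6a1 and Col1a1 did not differ beyond their spread in this order. Col5a2 followed at 102 ± 3.1 CPM per kb, Col16a1 at 94.97 ± 13, Col5a1 at 73.3 ± 2.4, Col6a3 at 67.2 ± 2.0, Col4a1 at 56.8 ± 4.4. Then came Col8a1 at 45.3 ± 4.8 CPM per kb, Col12a1 at 34.9 ± 1.4, Col4a5 at 31.0 ± 6.1 and Col4a2 at 24.6 ± 1.7, of which Col12a1 and Col4a5 did not differ beyond their spread.

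With MyoD, 14 of the 29 collagens tested fell and 3 rose against the 5 GFP libraries (edgeR's quasi-likelihood test, Benjamini-Hochberg adjusted p under 0.05 over all 13825 genes). Of all genes tested, 20.9% were called lower and 21.4% higher. The 14 that fell include Col8a2, which reached 1 CPM in no MyoD library and was carried past the filter by the GFP libraries. The 3 that rose include Col15a1, which was tested only because the MyoD libraries carried it past the filter. It is also among those higher against 1x GFP alone and without 1x GFP. The median log2 fold change of the 29 collagens was -0.61, and that of all genes -0.03. Against the 1x GFP library alone, 12 collagens were lower and 4 higher (15.4% and 15.1% of all genes), and without that library 19 were lower and 3 higher. The count rests in part on the 2x MyoD library: without it 6 collagens were called lower and 2 higher, 8 of the 17 calls, none with a changed sign. With Myf5, 5 of the 29 fell and 1 rose (2.29% of all genes called lower, 3.81% higher), with a median of -0.41 for the collagens and -0.003 for all genes. Against 1x GFP alone, edgeR called no collagen with Myf5 (0.152% of all genes lower, 1.03% higher), while at an unadjusted p under 0.05 there were 7 lower and 3 higher (7.83% and 9.6% of all genes). Without the 1x GFP library 13 were lower and 2 higher. Leaving out 2x Myf5 also ended all Myf5 calls, and leaving out 1x Myf5 left 3 lower and 0 higher. Leaving out any 1 library of the MOI series left 2 lower and 0 higher. Both factors were set against the same GFP libraries. Shares over all genes were not taken, here or below, for DESeq2 or for fits that left out a library. Nor were they taken with the MOI series alone as control, other normalization factors, no filter or the dose label as a block. The same holds for cells without virus against 1x GFP alone and for the lower count limit of the Chimera ratios. Counts under these settings are not read as results about collagens.

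**Figure D2:**
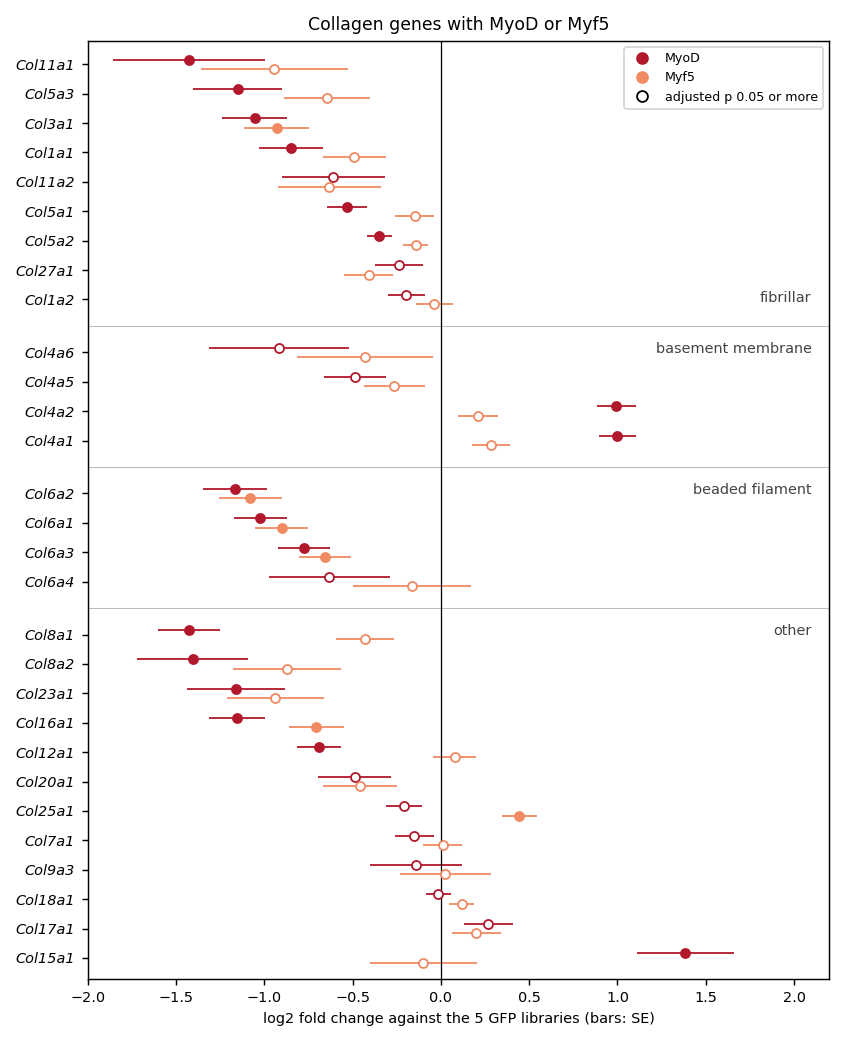
Log2 fold change against the 5 GFP libraries (x axis, bars show the SE) of the 29 collagens tested, by class, in MyoD cells and in Myf5 cells. Filled points passed an edgeR adjusted p of 0.05. Col4a1 and Col4a2 lie near 1 with MyoD and near 0.2 to 0.3 with Myf5, and the type VI chains Col6a1, Col6a2 and Col6a3 lie left of 0 with both.

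Among fibrillar collagens, 6 of the 9 tested fell with MyoD, 1 fell with Myf5 and none rose with either. Col3a1 encodes the single chain of type III collagen, which forms thin pliable fibres. It was at 1962 and 1255 CPM in 1x and 2x MyoD cells and at 1947 and 1597 CPM in 1x and 2x Myf5 cells. In the GFP libraries it was at 3713, 3728, 3521 and 3670.2 CPM from MOI 15 to 120 and at 2643 CPM in 1x GFP. All 4 factor libraries lay below all 5 GFP libraries, of which 1x GFP was the lowest. Col3a1 fell with MyoD by 1.05 ± 0.18 on the log2 scale (SE, edgeR adjusted p = 0.00256) and with Myf5 by 0.93 ± 0.18 (edgeR adjusted p = 0.0238). Its Myf5 call was kept in 7 of 14 other settings.

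The chains of type I collagen, the main fibre of tendon, skin and bone, moved unequally. Col1a1 was at 1922 and 1173 CPM in MyoD cells and 2317 and 1705 CPM in Myf5 cells. The GFP libraries held 2904.5, 2950.05, 2763 and 2704 CPM of it from MOI 15 to 120, and 1x GFP held 3092 CPM. It fell with MyoD by 0.85 ± 0.18 (edgeR adjusted p = 0.00626), with no overlap between the groups, a call lost without 2x MyoD. Col1a2, its partner chain, was at 4458 and 3648 CPM in MyoD cells and 4896 and 4283 CPM in Myf5 cells. In GFP cells it was at 4667, 4817, 4570.1 and 4639.6 CPM in the MOI series and at 5319 CPM in 1x GFP. The MyoD libraries lay below all GFP libraries, but the log2 difference of -0.20 ± 0.10 did not pass (edgeR adjusted p = 0.153), although it did against 1x GFP alone (-0.39 ± 0.11, edgeR adjusted p = 0.0309). With Myf5, Col1a1 differed by -0.49 ± 0.18 and Col1a2 by -0.04 ± 0.10, neither of which passed (edgeR adjusted p = 0.117 and 0.835). The ratio of Col1a1 to Col1a2, per kilobase, was 0.389 and 0.290 in 1x and 2x MyoD cells and 0.427 and 0.359 in Myf5 cells. It was 0.513 without virus and 0.524 to 0.561 in GFP cells.

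Type V collagen, which is buried in type I fibres and limits their width, fell with MyoD in all 3 of its chains. Col5a1 was at 476 and 348 CPM in MyoD cells and 583 and 507 CPM in Myf5 cells, against 596 to 649 CPM in GFP cells. The MyoD difference was -0.53 ± 0.11 (edgeR adjusted p = 0.00593) and the Myf5 difference -0.15 ± 0.11 (edgeR adjusted p = 0.399). Col5a2 was at 556 and 466 CPM in MyoD cells, at 579 and 617 CPM in Myf5 cells and at 650.1 to 694 CPM in GFP cells. Its fall with MyoD was the smallest of the 14, -0.35 ± 0.07 (edgeR adjusted p = 0.00504). Col5a3 was at 41.7 and 24.9 CPM in MyoD cells and 58.4 and 37.3 CPM in Myf5 cells, against 85.5, 75.4, 70.8, 59.3 and 89.8 CPM in the GFP libraries from MOI 15 to 120 and 1x. It fell with MyoD by 1.15 ± 0.25 (edgeR adjusted p = 0.00691). With Myf5 its -0.64 ± 0.24 did not pass (edgeR adjusted p = 0.128). Without 2x MyoD none of the 3 type V chains was called. Col11a1, a type XI chain that seeds thin fibrils in cartilage, was called lower with MyoD (-1.43 ± 0.43, edgeR adjusted p = 0.0263). Its values of 17.6 and 11.001 CPM in MyoD cells lay below the 34.2 to 59.3 CPM of the MOI series but overlapped the 15.9 CPM of 1x GFP. Against 1x GFP alone the difference was -0.15 and not called, so this call rests on the MOI series.

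**Figure D3:**
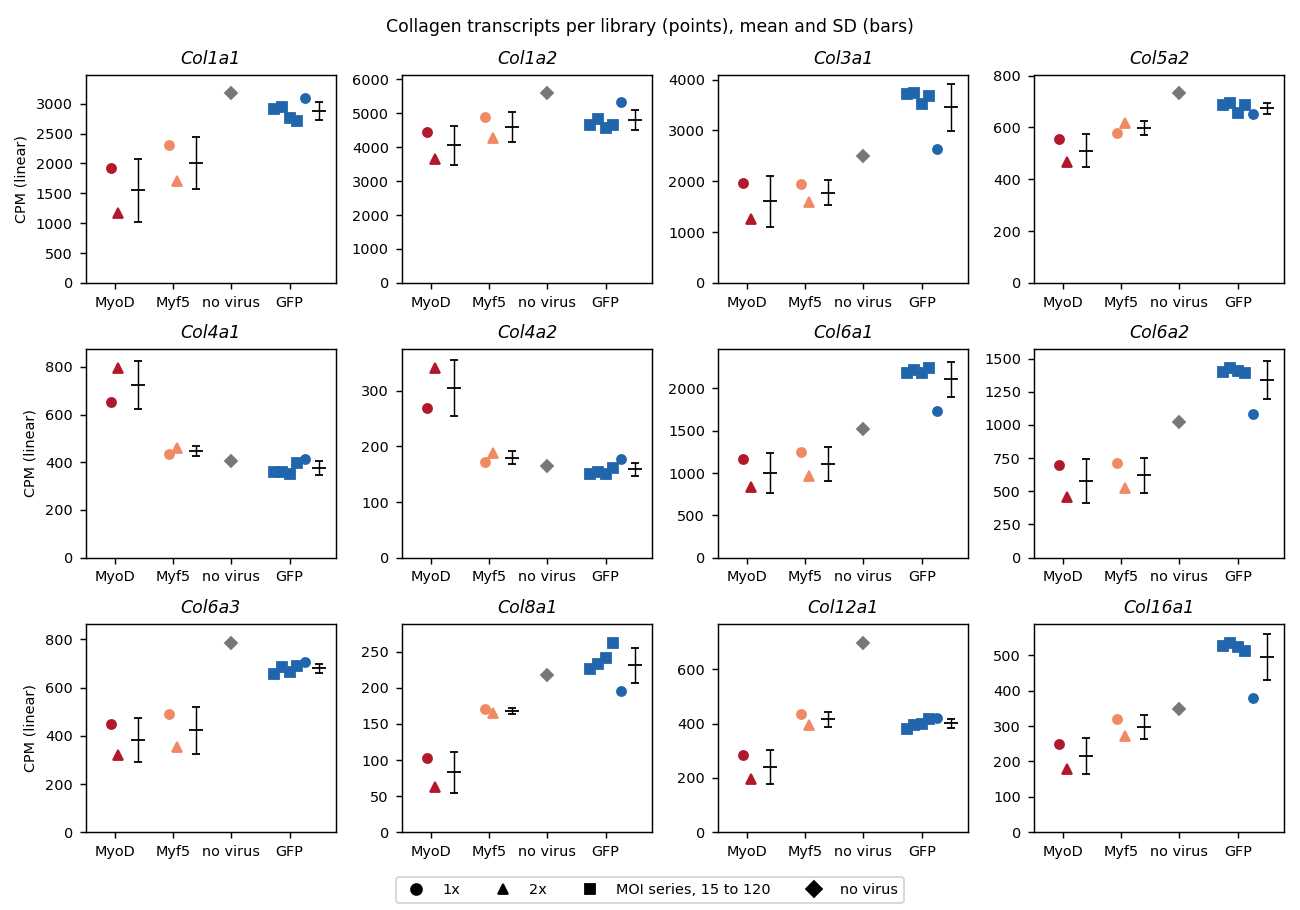
CPM of 12 collagens in each library of the main table (points), by group, with the mean and SD beside groups of 2 or more. Circles are 1x, triangles 2x, squares the GFP libraries of the MOI series and diamonds cells without virus. The MyoD points of Col4a1 (654 and 795 CPM) lie above every GFP point and those of Col6a1 (1171 and 834 CPM) below.

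In type VI collagen, 3 of the 4 chains tested fell with MyoD and the same 3 fell with Myf5. Col6a1, Col6a2 and Col6a3 encode the chains of the classical type VI heterotrimer, mutations of which cause muscular dystrophy in humans. Col6a1 was at 1171 and 834 CPM in MyoD cells and 1245 and 963 CPM in Myf5 cells, against 2178, 2213, 2178 and 2239 CPM in the MOI series and 1739 CPM in 1x GFP. It fell with MyoD by 1.02 ± 0.15 (edgeR adjusted p = 0.00119) and with Myf5 by 0.90 ± 0.15 (edgeR adjusted p = 0.0129). Col6a2 was at 695 and 458 CPM in MyoD cells and 715 and 526 CPM in Myf5 cells, against 1397, 1427, 1403 and 1389 CPM in the MOI series and 1082 CPM in 1x GFP. This was a fall of 1.17 ± 0.18 with MyoD (edgeR adjusted p = 0.00144) and of 1.08 ± 0.18 with Myf5 (edgeR adjusted p = 0.0128). For both chains no factor library overlapped a GFP library, and 1x GFP was again the lowest control. Col6a3 was at 449 and 319.6 CPM in MyoD cells and 493 and 353 CPM in Myf5 cells, against 655, 684, 663 and 689.8 CPM in the MOI series and 704 CPM in 1x GFP. It fell by 0.77 ± 0.15 with MyoD (edgeR adjusted p = 0.0037) and by 0.65 ± 0.15 with Myf5 (edgeR adjusted p = 0.0353), and the MyoD call was lost without 2x MyoD. The Myf5 call was kept in 8 of 14 other settings for Col6a3 and in 12 of 14 for Col6a1 and for Col6a2. Col6a4, at 0.391 to 1.40 CPM in the main table, differed by -0.63 ± 0.34 with MyoD and -0.16 ± 0.33 with Myf5, neither called. Between MyoD and Myf5 none of the 4 was called, with log2 differences of -0.12 ± 0.17 for Col6a1, -0.09 ± 0.20 for Col6a2 and -0.12 ± 0.17 for Col6a3.

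Of the 4 type IV chains tested, 2 rose with MyoD and none with Myf5. Col4a1 and Col4a2 together form the main trimer of basement membranes and are transcribed away from each other from the shared start region described above. Col4a1 was at 654 and 795 CPM in 1x and 2x MyoD cells and at 434 and 462 CPM in 1x and 2x Myf5 cells. Cells without virus held 404 CPM of it, and the GFP libraries 358, 359, 349 and 398 CPM from MOI 15 to 120 and 415 CPM at 1x. It rose 2.00-fold with MyoD (log2 1.00 ± 0.10, edgeR adjusted p = 0.000241). Col4a2 was at 269 and 341 CPM in MyoD cells and 171 and 189 CPM in Myf5 cells, and 165 CPM in cells that got no virus. The GFP libraries held 151, 154, 151 and 161 CPM from MOI 15 to 120 and 177 CPM at 1x. It rose 1.99-fold with MyoD (log2 0.99 ± 0.11, edgeR adjusted p = 0.000332). Both passed in 14 of 14 other settings, with log2 differences of 0.81 to 1.15 for Col4a1 and 0.79 to 1.17 for Col4a2. With Myf5 the log2 differences were 0.28 ± 0.11 for Col4a1 and 0.21 ± 0.11 for Col4a2, not called (edgeR adjusted p = 0.13 and 0.255). Directly between the factors, Col4a1 was 1.64-fold and Col4a2 1.72-fold higher with MyoD (edgeR adjusted p = 0.0256 and 0.0252). The per-kilobase ratio of Col4a1 to Col4a2 was 2.37 and 2.28 in MyoD cells, 2.47 and 2.38 in Myf5 cells and 2.26 to 2.41 in GFP cells.

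The other pair of type IV chains, Col4a5 and Col4a6, also neighbours that start in opposite directions, did not rise. Col4a5 was at 147 and 132 CPM in MyoD cells and 169 and 161 CPM in Myf5 cells, against 211, 218, 216 and 237 CPM in the MOI series and 133 CPM in 1x GFP. With MyoD its -0.49 ± 0.18 did not pass (edgeR adjusted p = 0.0513), and the 1x GFP library lay among the MyoD values. Without that library it was called lower with MyoD. Col4a6 was near the detection filter, at 0.757 and 0.599 CPM in MyoD cells, 0.673 and 1.26 CPM in Myf5 cells and 0.785 to 1.94 CPM in GFP cells. Its log2 difference with MyoD was -0.92 ± 0.40 (edgeR adjusted p = 0.0899).

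Among the 12 other collagens tested, 5 fell and 1 rose with MyoD, and 1 fell and 1 rose with Myf5. The 1 that rose with MyoD was Col15a1, which only the MyoD libraries carried past the filter. Col8a1, a chain of the hexagonal network of the cornea and vessel walls, was at 103 and 63.0 CPM in MyoD cells and 170.4 and 165 CPM in Myf5 cells. The GFP libraries held 225, 233, 241 and 262 CPM from MOI 15 to 120 and 195 CPM at 1x. It fell with MyoD, 2.69-fold (edgeR adjusted p = 0.000501). With Myf5 the difference of -0.43 ± 0.16 did not pass (edgeR adjusted p = 0.13), and MyoD against Myf5 gave -0.997 ± 0.19 (edgeR adjusted p = 0.0291). Its partner chain Col8a2 was low, at 0.683 and 0.391 CPM in MyoD cells and 1.18 to 1.67 CPM in GFP cells. The GFP libraries carried it past the filter, and no MyoD library reached 1 CPM. It fell by 1.41 ± 0.32 with MyoD (edgeR adjusted p = 0.00772). That call was lost against 1x GFP alone and without 2x MyoD.

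Both abundant FACIT collagens fell with MyoD, and 1 of them also fell with Myf5. Col16a1, which sits on fibrils and basement membrane edges, was at 250.2 and 179 CPM in MyoD cells and 320.1 and 273 CPM in Myf5 cells, against 525, 534, 523 and 512 CPM in the MOI series and 378 CPM in 1x GFP. It fell by 1.15 ± 0.16 with MyoD (edgeR adjusted p = 0.00087) and by 0.70 ± 0.15 with Myf5 (edgeR adjusted p = 0.0334). The Myf5 call of Col16a1 was kept in 7 of 14 other settings. Col12a1, which binds type I fibrils in tendon and in the layer around muscle, was at 286 and 197 CPM in MyoD cells and 435 and 397 CPM in Myf5 cells. The GFP libraries held 380.2, 395, 398 and 418 CPM of it in the MOI series and 419 CPM at 1x. It fell by 0.69 ± 0.12 with MyoD (edgeR adjusted p = 0.00295), with no overlap, and with Myf5 the difference was 0.08 ± 0.12 (edgeR adjusted p = 0.693), with the 1x Myf5 library above the GFP range and the 2x Myf5 library inside it. MyoD against Myf5 gave -0.77 ± 0.14 (edgeR adjusted p = 0.0272).

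Col15a1, a multiplexin of muscle and vessel basement membranes, had 114 and 78 counts in 1x and 2x MyoD cells, 32 and 28 counts in Myf5 cells and 8, 6, 10, 9 and 51 counts in the GFP libraries. This was 1.41 and 1.02 CPM with MyoD, 0.469 and 0.409 CPM with Myf5 and 0.336 to 0.626 CPM with GFP, so the MyoD libraries lay above all others. The log2 difference with MyoD was 1.38 ± 0.27 (edgeR adjusted p = 0.00433), but since only these libraries carried Col15a1 past the filter, it had to differ to be tested at all. The other multiplexin, Col18a1, source of endostatin, was at 133 and 111 CPM in MyoD cells, 139 and 132 CPM in Myf5 cells and 121 to 132 CPM in GFP cells, with a MyoD difference of -0.01 ± 0.07. Among membrane-spanning collagens, Col25a1, which motor neuron contact on muscle requires in mice, was at 7.51 and 7.23 CPM in MyoD cells, 11.96 and 11.5 CPM in Myf5 cells and 8.01 to 9.57 CPM in GFP cells. It rose with Myf5 by 0.45 ± 0.10 (edgeR adjusted p = 0.0346), and MyoD was lower than Myf5 by 0.65 ± 0.12 (edgeR adjusted p = 0.0256). The Myf5 call was lost in 8 of 14 other settings. Col23a1, another of this class, was at 1.72 and 1.33 CPM in MyoD cells and 2.80 to 4.89 CPM in GFP cells, and fell by 1.16 ± 0.28 with MyoD (edgeR adjusted p = 0.0102). That call, too, was lost against 1x GFP alone and without 2x MyoD.

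The direct comparison of MyoD with Myf5 called 3 collagens lower (Col8a1, Col12a1 and Col25a1) and 3 higher (Col4a1, Col4a2 and Col15a1), where 1.29% of all genes were lower and 4.21% higher. Of these, Col15a1 was tested only because the MyoD libraries carried it past the filter. No fibrillar or type VI chain was called between them, and the median over the 29 collagens was -0.17, against -0.007 over all genes. Leaving out 2x MyoD, 1x Myf5 or 2x Myf5 ended all 6 calls, and leaving out 1x MyoD gave 7 lower and 2 higher.

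Genes whose products modify, fold or cut procollagen were counted over a list of 26 tested, of which 12 fell and 1 rose with MyoD (20.9% and 21.4% of all genes). Without 2x MyoD, 4 were called lower, and without 1x GFP, 3 were called higher. Those with the smallest adjusted p were Tmem38b, an endoplasmic reticulum cation channel whose loss disturbs collagen in bone, Plod1, a lysyl hydroxylase, Bmp1, the procollagen C-proteinase, and P4ha2, a prolyl hydroxylase subunit. Tmem38b was at 39.5 and 69.3 CPM in MyoD cells, 21.3 and 29.6 CPM in Myf5 cells and 9.74 to 11.97 CPM in GFP cells, and rose by 2.36 ± 0.20 with MyoD and 1.24 ± 0.21 with Myf5 (edgeR adjusted p = 0.000109 and 0.0129). It was also the single gene of the list called between MyoD and Myf5 (1.12 ± 0.25, edgeR adjusted p = 0.0406), a call lost without 2x MyoD, 1x Myf5 or 2x Myf5. Between MyoD and Myf5, 1.29% of all genes were called lower and 4.21% higher. Bmp1 was at 249 and 187 CPM in MyoD cells, 299 and 245 CPM in Myf5 cells and 364 to 479 CPM in GFP cells. This was a fall of 0.99 ± 0.14 with MyoD and 0.69 ± 0.13 with Myf5. Plod1 fell by 0.76 ± 0.08 with MyoD and 0.43 ± 0.08 with Myf5, and P4ha2 by 0.46 ± 0.07 with MyoD. Of all genes, 2.29% were called lower and 3.81% higher with Myf5. With Myf5, 4 of the 26 fell, among them P3h2, a prolyl 3-hydroxylase (-0.81 ± 0.20), and 1 rose, and without 2x Myf5 or against 1x GFP alone none was called. Plod1, Plod3 and Fkbp14 were next to Tmem38b in MyoD against Myf5 but did not pass, with differences of -0.34 ± 0.09, -0.30 ± 0.08 and -0.32 ± 0.09. Serpinh1, the collagen chaperone Hsp47, differed by 0.06 ± 0.07 with MyoD and was not called.

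Of 7 collagen receptor genes tested, 4 fell and 1 rose with MyoD (20.9% and 21.4% of all genes), and 1 fell with Myf5 (2.29%). Without 2x MyoD, 2 were called lower with MyoD, and without 2x Myf5 or against 1x GFP alone none was called with Myf5. Itga11 and Itga10, subunits of collagen-binding integrins, fell by 1.24 ± 0.19 and 1.01 ± 0.22 with MyoD, and Mrc2, an endocytic collagen receptor, by 0.65 ± 0.11. With Myf5, Itga11 fell by 0.86 ± 0.18, while Itga10 (-0.86 ± 0.22), Mrc2 (-0.32 ± 0.11) and the discoidin receptor Ddr2 (-0.28 ± 0.11) did not pass. Ddr1, a discoidin receptor that also binds type IV collagen, was at 206 and 317 CPM in MyoD cells, 129.7 and 148 CPM in Myf5 cells and 109 to 136 CPM in GFP cells. It rose by 1.09 ± 0.15 with MyoD and was higher with MyoD than with Myf5 by 0.94 ± 0.19 (edgeR adjusted p = 0.000865 and 0.0316), the second lost without 2x MyoD, 1x Myf5 or 2x Myf5. Mrc2, Itga11 and Ddr2 were next in MyoD against Myf5 and not called (-0.34 ± 0.13, -0.38 ± 0.21 and -0.21 ± 0.13).

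The amount of virus was asked about in 3 ways. No GFP library was given 2x virus. From 1x to 2x, Myod1 went from 309 to 617 CPM in MyoD cells and Myf5 from 149.5 to 249 CPM in Myf5 cells. Amount of virus and amount of factor cannot be told apart in the comparison of 2x with 1x. Between 2x and 1x virus, over both factors, edgeR called no collagen (0.0% of all genes lower, 0.0217% higher). At an unadjusted p under 0.05, 9 collagens were lower and 1 higher at 2x (4.79% and 6.26% of all genes), and DESeq2 called 6 lower (Col1a1, Col5a1, Col5a3, Col6a1, Col6a2 and Col6a3). Of the 29 collagens, 21 were lower at 2x than at 1x in both MyoD and Myf5 cells, as were 31.0% of all genes, with 1 library per dose and factor. The type IV pair was on the other side: log2 of 2x over 1x was 0.32 with MyoD and 0.10 with Myf5 for Col4a1, and 0.37 and 0.15 for Col4a2. For Col6a3 it was -0.45 with MyoD and -0.47 with Myf5, and for Col1a1 -0.68 and -0.43.

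**Figure D4:**
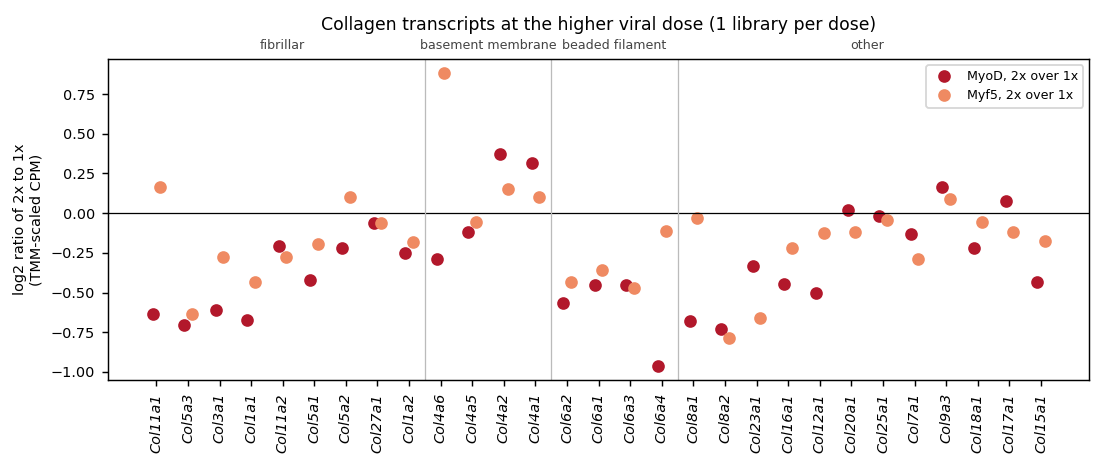
Log2 ratio of 2x to 1x virus (TMM-scaled CPM) for the 29 collagens, with MyoD and with Myf5, in the order of classes. Each point compares 1 library with 1 library. Most points lie below 0, and Col4a1 and Col4a2 lie above 0 with both factors.

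Cells without virus were set against the 5 GFP libraries. There, 3 of the 29 collagens were called lower and 1 higher (2.52% and 5.83% of all genes). The arm without virus is 1 library, which the fit assumes to vary like the libraries of the other groups. Col25a1 was at 3.22 CPM without virus (-1.41 ± 0.15, edgeR adjusted p = 0.00165), below the 8.01 to 9.57 CPM of GFP cells. Col23a1 was at 0.784 CPM without virus, with a difference of -2.13 ± 0.41, and Col18a1 at 88.9 CPM, with a difference of -0.48 ± 0.10 (edgeR adjusted p = 0.016 and 0.0216). Col12a1 was higher, at 697 CPM without virus against 380.2 to 419 CPM in GFP cells (0.84 ± 0.15, edgeR adjusted p = 0.0114), but was not called against 1x GFP alone. Without 1x GFP the counts were 10 lower and 3 higher.

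Within the GFP libraries, 28 collagens were tested for a trend over MOI 15, 30, 60 and 120. Col5a3 fell along the series, from 85.5 through 75.4 and 70.8 to 59.3 CPM (slope -0.16 ± 0.02 log2 units per doubling of MOI), where 3.42% of all genes were called lower. Col11a1 and Col8a1 rose, with slopes of 0.21 ± 0.05 and 0.07 ± 0.02 (edgeR adjusted p = 0.00723 and 0.0147), where 4.06% were called higher. DESeq2 called neither of them, and the count of higher collagens ran between 0 and 6 when 1 library was left out. Against 1x GFP the MOI series was called higher in 5 of the 29 collagens and lower in none (12.1% and 12.2% of all genes). The 1x GFP side is 1 library, which the fit assumes to vary like the libraries of the other groups. These were Col11a1 (1.48 ± 0.32), Col9a3 (0.92 ± 0.19), Col20a1 (0.76 ± 0.13), Col4a5 (0.67 ± 0.08) and Col27a1 (0.50 ± 0.07), and at an unadjusted p under 0.05 there were 7 higher and 1 lower (19.3% of all genes in each direction).

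The last pair of libraries has 1 library each for the Chimera and for second-batch MyoD, so values are ratios of CPM with exact binomial intervals that cover counting error only. Of 28 collagens with at least 50 counts over both libraries, 8 were at least 1.5-fold higher with the Chimera and 1 lower, where 7.31% of 13412 genes were higher and 7.11% lower. The median log2 ratio was 0.31 over the 28 collagens and -0.02 over all genes. The fibrillar sum was 13999 CPM with the Chimera and 9168 CPM with second-batch MyoD, a ratio of 1.53. Col3a1 was at 4043 CPM with the Chimera and 2438 CPM with second-batch MyoD (ratio 1.66, 95% interval 1.64 to 1.68), Col1a2 at 5564 and 3696 CPM (1.51, 1.49 to 1.52) and Col5a2 at 1059 and 531 CPM (2.00, 1.95 to 2.04). Col11a1 had a ratio of 2.47 (2.31 to 2.66). The largest ratio among abundant collagens was that of Col12a1, at 633 CPM with the Chimera and 209 CPM with second-batch MyoD (3.03, 2.93 to 3.13). Col6a4, Col4a6 and Col8a2 were also past 1.5-fold, but on 50 or fewer counts per library.

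Type IV and type VI sums did not share that direction. Basement membrane chains summed to 954 CPM with the Chimera and 985 CPM with second-batch MyoD, and beaded filament chains to 2475 and 2896 CPM. Col4a1 was at 492 CPM with the Chimera and 559 CPM with second-batch MyoD (0.880, 0.859 to 0.902) and Col4a2 at 191 and 233 CPM (0.821, 0.790 to 0.854). The other type IV chains with enough counts, Col4a5 and Col4a6, were higher with the Chimera. Col4a5 was at 269 CPM with the Chimera and 193 CPM with second-batch MyoD (1.40, 1.34 to 1.45), and Col4a6 is given above. Col6a2 was at 708 CPM with the Chimera and 926 CPM with second-batch MyoD (0.765, 0.750 to 0.780). Col18a1 was the 1 collagen past the fold in the lower direction, at 50.7 CPM with the Chimera and 101 CPM with second-batch MyoD (0.501, 0.468 to 0.537). Fibroblast markers summed to 11605 CPM with the Chimera and 10762 CPM with second-batch MyoD, and skeletal muscle markers to 696 and 1842 CPM, and their part in these ratios was not tested.

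**Figure D5:**
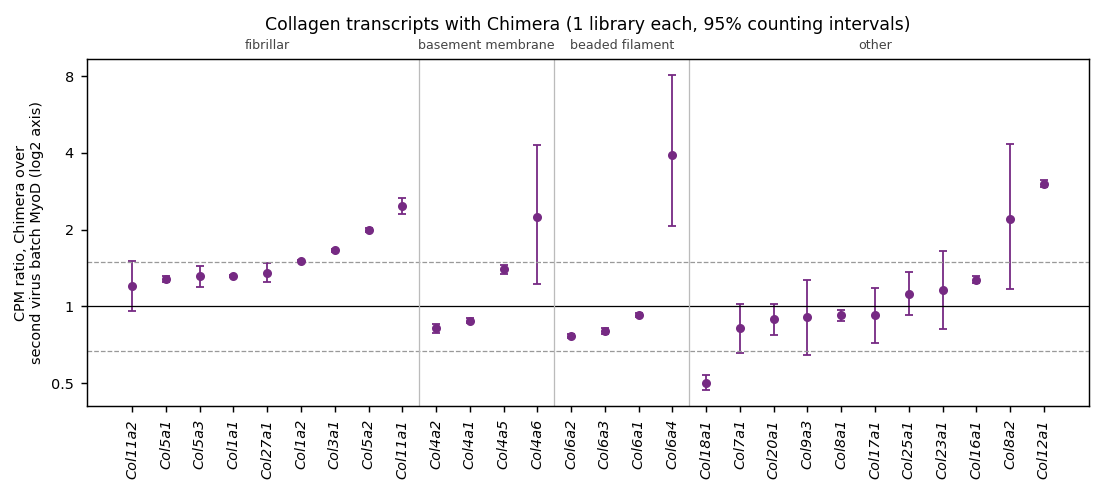
CPM ratio of the Chimera to second-batch MyoD (log2 axis) for the 28 collagens with at least 50 counts, by class, with 95% exact binomial intervals that cover counting error only. Dashed lines mark 1.5-fold. Col12a1 (3.03) and Col5a2 (2.00) lie above the upper line and Col18a1 (0.501) below the lower one, and there is 1 library on each side.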

How the data were processed

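Poly(A) RNA of 12 libraries was sequenced on an Illumina HiSeq instrument, per the labels' protocols. The authors' deposited main table holds expected counts per gene (10 libraries, 14.6% to 22.2% of counts on fractional values), rounded here to whole numbers, and their second deposited table holds counts (2 libraries). CASAVA 1.8.2, TopHat2 2.0.8 and mm9 are named in the submitters' processing notes. The counting tool, its strand setting and the annotation are not given in the sources used here, so antisense overlaps (at most 6.07% of a collagen's exon length, Col9a3) cannot be told apart. Identifiers were matched to GENCODE vM21 names with the version dropped (32610 of 37287). CPM used library totals, and CPM per kb the longest coding transcript. The main table has no counts on 37 mitochondrial genes and the second has 4.05% and 4.18%, so tests stayed within a table and levels across tables leave those genes out.

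Genes with at least 1 CPM in at least 2 libraries were fitted over all 10 libraries in 4 groups (6 residual degrees of freedom) with edgeR 4.0.16 (TMM, quasi-likelihood) in R 4.3.3, called at a Benjamini-Hochberg adjusted p under 0.05. Dose, the MOI trend and 1x GFP as its own group had fits of their own. DESeq2 1.42.0, RLE factors, no factors, totals without collagens, no filter, other controls and leaving out libraries were alternatives. The steps were tested on simulated data. Members and lists were chosen with earlier results of these data known. Collagens called in a factor comparison and the chains of types I, III, IV, V and VI are named, and from the lists the 4 smallest adjusted p per factor comparison. Other collagens, and Serpinh1, were named after their values were seen.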

Additional observations from a re-analysis of the deposited data

Results flagged for a closer look

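Of the 29 tested collagens, 7 had 1 GFP library far below the other 4, and each time it was the 1x GFP library, also the deepest of the 5. Chance gives such a gap in about 1 in 20 groups, but the 7 genes were read in the same libraries and are not separate draws. The rule was not run over all genes. As given above, the 1x GFP library stood apart over all genes, so the count is not read as a trait of collagens. The gap to the nearest other library, as a share of the whole range, was 0.888 for Col6a2 (1389 to 1427 CPM in the MOI series, 1082 CPM in 1x GFP) and 0.878 for Col6a1 (2178 to 2239 CPM in the MOI series, 1739 CPM in 1x GFP). For Col16a1 it was 0.857 (512 to 534 CPM in the MOI series, 378 CPM in 1x GFP), for Col3a1 0.810 (3521 to 3728 CPM in the MOI series, 2643 CPM in 1x GFP) and for Col27a1 0.784 (34.7 to 37.4 CPM in the MOI series, 24.7 CPM in 1x GFP). It was 0.7497 for Col4a5 (211 to 237 CPM in the MOI series, 133 CPM in 1x GFP) and 0.744 for Col9a3 (2.59 to 2.99 CPM in the MOI series, 1.42 CPM in 1x GFP). Col6a1, Col6a2, Col16a1 and Col3a1 were called lower with MyoD with either control, and none of them was called with Myf5 against 1x GFP alone. Depth and dose label cannot be told apart between this library and the MOI series.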

How the results depend on the processing

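For MyoD against GFP no called collagen changed sign under the alternatives run, and leaving out 1 library gave 6 to 19 lower and 2 to 3 higher. For Myf5 against GFP, leaving out 1 library gave 0 to 13 lower and 0 to 2 higher. The count was 0 lower and 0 higher with 1x GFP as the control, 13 lower and 2 higher with the MOI series as the control, 9 lower with DESeq2 and 0 higher without normalization factors. For MyoD against Myf5, leaving out 1 library gave 0 to 7 lower and 0 to 2 higher, and the dose label as a replicate block gave 4 lower and 3 higher. Without virus against GFP there were 10 lower and 3 higher with the MOI series as control, 0 higher with 1x GFP, 7 lower with DESeq2, and 2 to 10 lower and 1 to 3 higher when leaving out 1 GFP library. For 2x against 1x, DESeq2 gave 6 lower. For the MOI trend, 4 were higher without a filter, 0 with DESeq2 and 0 to 6 when leaving out 1 library. At least 10 counts gave 2 collagens lower with the Chimera. Sign changes were listed only for collagens called in a factor comparison and for tested chains of types I, III, IV, V and VI. Outside this set, more changed sign with 1x GFP as control. With MyoD these were Col9a3 (0.61), Col11a2 (0.062), Col20a1 (0.14) and Col27a1 (0.17). With Myf5 these were Col7a1 (-0.076), Col11a2 (0.040), Col20a1 (0.17) and Col27a1 (0.0026). Within the set, log2 differences that were not called changed sign as follows, and the cause was not tested. With 1x GFP as control these were Col4a5 with MyoD (0.069) and, with Myf5, Col11a1 (0.33), Col4a6 (0.28), Col4a5 (0.29) and Col12a1 (-0.025). With the MOI series as control these were Col15a1 (0.13) and Col1a2 (0.015) with Myf5. Leaving out 1 library gave -0.20 to 0.13 for Col15a1 and -0.14 to 0.052 for Col1a2 with Myf5. For MyoD against Myf5, leaving out 1 library gave -0.36 to 0.095 for Col6a1, -0.397 to 0.17 for Col6a2, -0.36 to 0.16 for Col6a3, -0.46 to 0.15 for Col3a1, -0.52 to 0.18 for Col23a1 and -0.85 to 0.035 for Col4a6. The 15 untested collagens were left out by the filter of 1 CPM, and Col4a6, Col6a4, Col8a2 and Col15a1 lie near it. Low levels limit what can be said of all of them.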

Other observations

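Col9a1, a type IX chain of cartilage fibrils, was below the filter and not tested, and had 7 and 18 counts in 1x and 2x MyoD cells, 8 in second-batch MyoD cells, 1 in Chimera cells and 0 in the other 8 libraries, where a count of 0 allows up to 3 counts, or 0.0368 to 0.168 CPM. Its level was 0.0869 and 0.234 CPM in 1x and 2x MyoD cells and 0.338 CPM in second-batch MyoD cells. Without a filter, edgeR called Col9a1 and Col14a1 with MyoD against GFP in addition to the 17 others. Of the cartilage markers, Sox9 was at 69.8 and 45.1 CPM in MyoD cells and 88.0 to 108 CPM in GFP cells, and Acan reached at most 0.0422 CPM in any library.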
